A study of Drosophila melanogaster with 4 samples.

Results

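Chromosome arm 3R of Drosophila melanogaster is the right arm of chromosome 3 and carries both Hox gene complexes of the fly. The regions described here are those called enriched for histone H4 acetylated on lysine 16 (H4K16ac) on that arm, taken by the arm's name in the deposited lists. There were 581 such regions of 3397 in ChIP replicate 1 and 253 of 2202 in ChIP replicate 2. The combined list, deposited for the series without a stated origin, had 1189 such regions of 6550. The study sequenced chromatin immunoprecipitated with an H4K16ac antibody (ChIP-seq, 2 replicates), with 2 replicates of input, the same kind of chromatin DNA without immunoprecipitation. All 4 samples came from whole embryos of the wild-type strain Oregon-R, labelled 14 to 16 h old, so each library mixes all cell types of the embryo, and the sex of the embryos is not given in the labels. Whether the replicates are separate collections of embryos is not stated in the labels, and their spread may be technical.

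Acetylation of lysine 16 in the tail of histone H4 weakens the packing of neighbouring nucleosomes and is associated with active chromatin. In Drosophila it is placed by the acetyltransferase MOF. As part of the MSL complex MOF acts on the male X chromosome in dosage compensation, and as part of the NSL complex it acts at promoters of active genes on all chromosomes. Autosomal arms such as 3R are not targets of dosage compensation. The Hox complexes on 3R hold the genes that give body segments their identity, and they are textbook targets of Polycomb repression in cells where a given Hox gene is silent.

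The replicate lists differed in size. Replicate 2 held fewer than 1 region for every 2 of replicate 1 on 3R, the number of reads per library is not in the files, and a region missing from a list is a region that was not called, which does not show absence of the mark. Scores are the authors' own and have no stated unit, so they serve here to rank regions within a list. Coordinates are those of the files, in release 5.

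H4K16ac regions occupied a small part of 3R. They covered 4.09% of the 27.9 Mb arm in replicate 1 and 1.65% in replicate 2, a mean of 2.87% ± 1.73 (SD, n = 2). Bases inside regions of both replicates made up 1.26% of the arm, bases in either replicate 4.47%, and the combined list 7.63%. Without replicate 2 the value of 1.26% becomes 4.09%, and without replicate 1 it becomes 1.65%. There were 20.8 regions per Mb of 3R in replicate 1, against 19.3 per Mb of the 3 other large autosomal arms, 2L, 2R and 3L, as a whole. In replicate 2 the densities were 9.07 per Mb of 3R and 8.84 per Mb of those arms, and in the combined list 42.6 and 41.2.

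Coverage of 3R was close to that of the other autosomal arms. It was 4.09% of 3R against 3.84% of 2L, 2R and 3L together in replicate 1, and 1.65% against 1.54% in replicate 2. The ratio of 3R to those arms was 1.07 in each replicate (1.07 ± 0.00408, SD, n = 2). The exact sign permutation test over the 2 replicates gave a two-sided p of 0.5, the smallest that 2 replicates allow, so no difference can pass a threshold of 0.05 in this design. For bases in both replicates the ratio was 1.14, for bases in either 1.05 and in the combined list 1.02. Among single arms 3R stood second in every list. In replicate 1 it was at 4.09%, below 2R at 4.84% and above 3L at 3.41% and 2L at 3.38%. In replicate 2 it was at 1.65%, with 2R at 1.95%, 3L at 1.38% and 2L at 1.32%. Against the 4.09% of 3R in replicate 1, X, the dosage-compensated chromosome, was covered at 32.1%. In replicate 2 the values were 1.65% for 3R and 23.6% for X.

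Regions were spread unevenly along 3R. Across its 27 full 1-Mb windows, coverage ran from 1.51% to 6.98% in replicate 1, with a median of 3.69%, and from 0.486% to 3.60% in replicate 2, with a median of 1.55%. The 3 densest windows for bases in both replicates were 1 to 2 Mb (2.69%), 19 to 20 Mb (2.66%) and 11 to 12 Mb (2.52%). Replicate 1 covered these windows at 6.98%, 6.69% and 6.24%, and replicate 2 at 3.60%, 3.29% and 3.36%. Both replicate lists therefore had the same 3 windows as their densest. In the combined list the 3 densest were 1 to 2 Mb (12.4%), 5 to 6 Mb (12.0%) and 20 to 21 Mb (10.9%), and the windows from 11 to 12 Mb and from 19 to 20 Mb ranked 5 and 7. The 3 sparsest for bases in both replicates were 26 to 27 Mb (0.360%), 13 to 14 Mb (0.439%) and 10 to 11 Mb (0.504%). In replicate 1 the lowest window was a different one, 22 to 23 Mb at 1.51%, which stood at 0.676% in replicate 2.

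The replicates ordered the windows much alike, with Spearman's rho 0.848 and Pearson's r 0.856 over the 27 windows. These describe windows that share the same 2 libraries and carry no test. The ratio of replicate 1 to replicate 2 coverage had a median of 2.39 but reached 5.69 in the window from 13 to 14 Mb, 5.09 from 14 to 15 Mb and 4.36 from 0 to 1 Mb. Its lowest value was 1.67, from 7 to 8 Mb. The window from 14 to 15 Mb thus ranked 10 of 27 in replicate 1, at 5.01%, and stood at 0.985% in replicate 2. There was no steady trend from one end of the arm to the other. In 4 equal parts of the arm, in the direction of the coordinates, replicate 1 had 148, 140, 164 and 129 regions and replicate 2 had 64, 65, 68 and 56. The last 0.905 Mb before the end of the sequence was covered at 5.54% in replicate 1 and 1.27% in replicate 2.

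**Figure D1:**
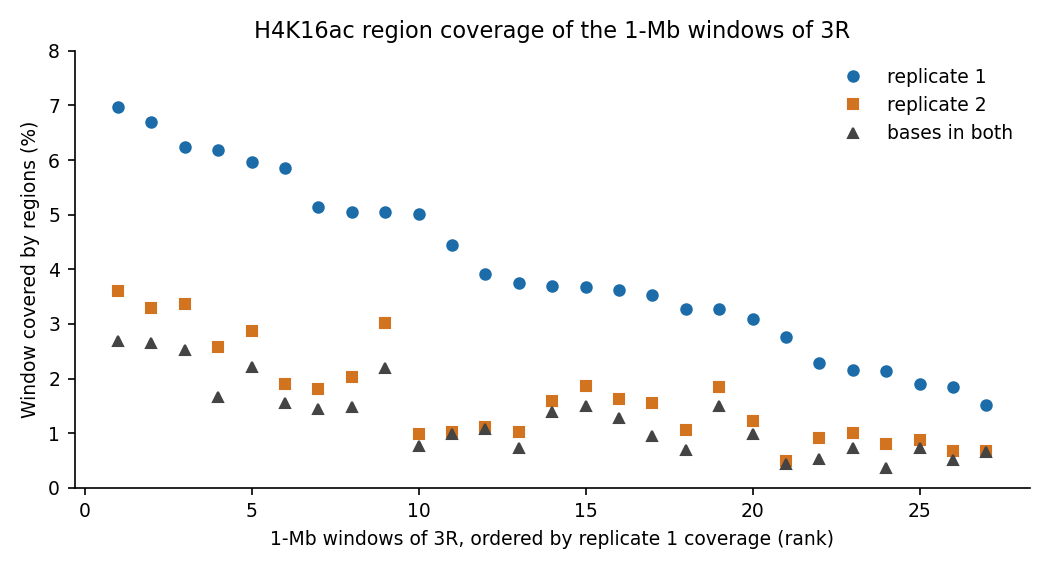
Each point is a 1-Mb window of 3R (27 windows), placed on the horizontal axis by its rank of replicate 1 coverage and on the vertical axis by the percent of its bases inside regions of replicate 1, of replicate 2 or of both. Replicate 1 falls from 6.98% to 1.51% across the ranks, and replicate 2 lies below it in each window, with its 3 highest values, 3.60%, 3.36% and 3.29%, at the first 3 ranks.

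At a finer scale called regions often had a close neighbour. When the regions of both replicates were merged into 629 regions of either replicate, 309 of them (49.1%) lay within 5 kb of another, and 63 (10.0%) had none within 50 kb. The median gap between neighbours was 14.5 kb, with quartiles of 3.80 and 51.0 kb. Chaining merged regions that lay up to 10 kb apart gave 61 clusters of 3 or more, which held 256 of the 629 merged regions (40.7%) on 4.41% of the arm. The clusters spanned from 7.23 to 59.9 kb, with a median of 18.1 kb, and a further 211 merged regions stood alone. Of the merged regions in clusters 34.8% were found in both replicates, and of those outside clusters 28.7%. The share in clusters was 37.2% on 2L, 42.6% on 2R and 31.0% on 3L, so 3R lay within the range of the other arms. With replicate 2 regions alone the number of clusters was 12, and with replicate 1 regions alone it was 56.

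The cluster with most members ran from 12031484 to 12091352. It held 10 merged regions in 59.9 kb, and 37.6% of its length was covered. Replicate 1 had 10 regions there and replicate 2 had 5, each of which overlapped one of replicate 1. Several scored high in both lists, as did the region of replicate 1 from 12042583 to 12044894, at percentile 96.0 of its 3R list, whose partner in replicate 2 was at percentile 97.0. The next cluster, from 20850814 to 20901322, had 9 merged regions in 50.5 kb, with 8 regions of replicate 1 and 4 of replicate 2, of which 3 stretches were shared.

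A further 3 clusters had 7 merged regions each. From 11165896 to 11198963 the replicates had 6 regions each, and 59.5% of 33.1 kb was covered in either. This cluster lies in the 100-kb window from 11100001 to 11200000, the densest of the arm in both replicate lists, of which 25.0% was covered in replicate 1 and 16.3% in replicate 2. In the combined list the densest was the one from 12000001 to 12100000, at 39.2%. From 7034272 to 7063181 replicate 1 had 6 regions and replicate 2 had 5. The last of them, from 13988899 to 14025042, was called in replicate 1 alone, with 7 regions at a median score percentile of 56.9 and 0 regions of replicate 2. It spans the border of the 2 windows with the highest ratios of replicate 1 to replicate 2 coverage. Its regions count in those ratios, so this is not separate evidence.

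Long stretches of 3R had no called region. In all, 90 stretches of at least 100 kb without a region of either replicate added up to 15.6 Mb, or 56.0% of the arm, and 22 of them were at least 200 kb long. Taken singly, replicate 1 left 95 such stretches, replicate 2 left 91 and the combined list 54. On the other arms the regions of either replicate left 62.3% of 2L, 46.6% of 2R and 56.0% of 3L in such stretches. The combined list, which holds many more regions, covered a pooled 2.18% of these stretches, against 7.63% of the whole arm. Lower coverage there was set in advance, because the stretches were chosen to lack replicate regions, which the combined list mostly contains. Combined regions in neither replicate held 36.9% of the combined bases on 3R. Wholly inside the stretches lay 246 of the 1189 combined regions. Of the 90 stretches 9 held no such region of the combined list.

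The longest ran from 26327268 to 26713546 (386.3 kb), in the sparsest window of the arm for bases in both replicates. It was ended on one side by a region of replicate 2 alone and on the other by one of replicate 1 alone. The second longest measured 339.8 kb and ran from 2484159 to 2824003, and the next 338.6 kb, from 22088215 to 22426783. Behind these came 335.4 kb from 3300510 to 3635876, then 331.9 kb from 17854953 to 18186873. The combined list covered between 0.670% and 2.24% of each of these 5. The stretch from 22088215 was the emptiest of them. The longest stretch without a region of the combined list, from 22088203 to 22381467 (293.3 kb), overlapped it over most of its length.

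Of all merged regions, 34.8% of those in clusters and 28.7% of those outside clusters were found in both replicates. Few stretches would thus have shared regions at both ends. At 10 of the 90 stretches, a count not read as a trait of them, the regions on both sides were called in both replicates. Among the 5 longest this was so for the stretch from 2484159, which lies inside the Antennapedia complex interval, and for the one from 17854953. The stretch in the Antennapedia complex interval measured 340.7 kb in replicate 1, the second longest of 582 stretches in that list, and 339.8 kb in replicate 2, where it was number 24 of 254.

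**Figure D2:**
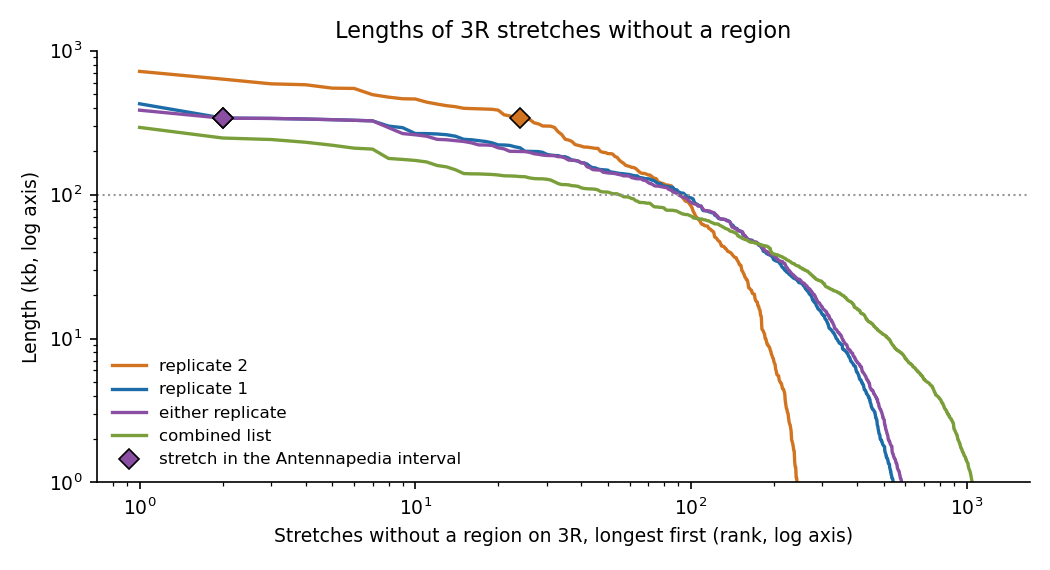
Lines give the length in kb (vertical, log axis) of every stretch of 3R without a region, ordered from the longest (horizontal, rank, log axis), for replicate 1, replicate 2, either replicate and the combined list. The dotted line marks 100 kb, and the diamonds mark the stretch in the Antennapedia complex interval, second in replicate 1 and in either replicate (these diamonds lie on each other) and number 24 in replicate 2.

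The Antennapedia complex holds the homeotic genes lab, pb, Dfd, Scr and Antp, which specify head and anterior thorax, together with bcd, zen, zen2 and ftz, homeobox genes of early embryonic patterning. In the RefSeq gene table, which is in release 6, all 9 lie on 3R in the order lab, pb, zen2, zen, bcd, Dfd, Scr, ftz, Antp. That table's positions cannot be set beside the regions, which are in release 5, so no gene is placed at a region here. The interval taken for the complex ran from 2450001 to 2850000. Without release 5 gene positions, neither this interval nor that of the bithorax complex could be checked against its genes, and the names of both intervals rest on the bounds chosen.

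Regions of the replicate lists sat near both ends of this interval, and neither list had one between. Replicate 1 had 2 regions, from 2482167 to 2483499 and from 2824176 to 2827615, and replicate 2 had 2, from 2482780 to 2484158 and from 2824004 to 2827580. The replicates therefore marked the same 2 places, and the 339.8 kb between them made up 85.0% of the interval. The first place was 1333 bp wide in replicate 1 and 1379 bp in replicate 2, and the second 3440 and 3577 bp. The second place is among the 10 widest shared stretches of the whole arm, with 3405 shared bases. Its rank by score differed widely between lists, at percentile 13.3 of replicate 1 and 87.2 of replicate 2, and the first place stood at percentiles 28.3 and 83.2.

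How low the coverage of this interval was depended on the list. Replicate 1 covered 1.19% of it, less than 62 of the 67 other 400-kb windows of 3R, whose median was 3.64%. Replicate 2 covered 1.24%, less than 33 and more than 34 of the 67 windows, whose median was 1.21%. In either replicate the value was 1.40%, with 61 of 67 windows higher. Narrowing the interval by 50 kb on each side left 0% in either replicate. The combined list had 10 regions in the interval, over 3.83% of it, with 57 windows higher. Of these, 6 lay wholly inside the empty stretch, measured 1001 to 1605 bp and overlapped no replicate region. On the side of lower coordinates the next 200 kb had 1 region in replicate 1 and 0 in replicate 2, while the next 200 kb on the other side had 8 and 2.

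The bithorax complex holds Ubx, abd-A and Abd-B, which specify posterior thorax and abdomen, and the gene table lists these 3 on 3R in that order. The interval taken for it ran from 12450001 to 12850000. Regions there were few but lay inside the interval as well as near its ends. Replicate 1 had 5 regions and replicate 2 had 2. A single place was called in both, from 12674874 to 12676930 in replicate 1 (2057 bp, score percentile 89.2) and from 12674901 to 12676902 in replicate 2 (2002 bp, percentile 82.4). In replicate 1 another region ended 0.828 kb before it, from 12672460 to 12674045, and one more lay from 12654663 to 12656565.

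The other region of replicate 2, from 12773398 to 12775444, ranked at percentile 84.8 of its list and had no counterpart in replicate 1. The remaining regions of replicate 1 lay near the ends, from 12465686 to 12467455 and from 12820680 to 12822660. Longer stretches without a region of either replicate lay between these, from 12467456 to 12654662 (187.2 kb) and from 12676931 to 12773397 (96.5 kb). Wholly inside the first the combined list had 4 regions, and inside the other 0. Coverage of the interval was 2.32% in replicate 1, with 51 of 67 other windows higher, and 1.01% in replicate 2, with 41 higher. It was 2.84% in either replicate (48 higher) and 6.03% in the combined list (41 higher). Without replicate 1 the value of 2.84% becomes 1.01%.

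**Figure D3:**
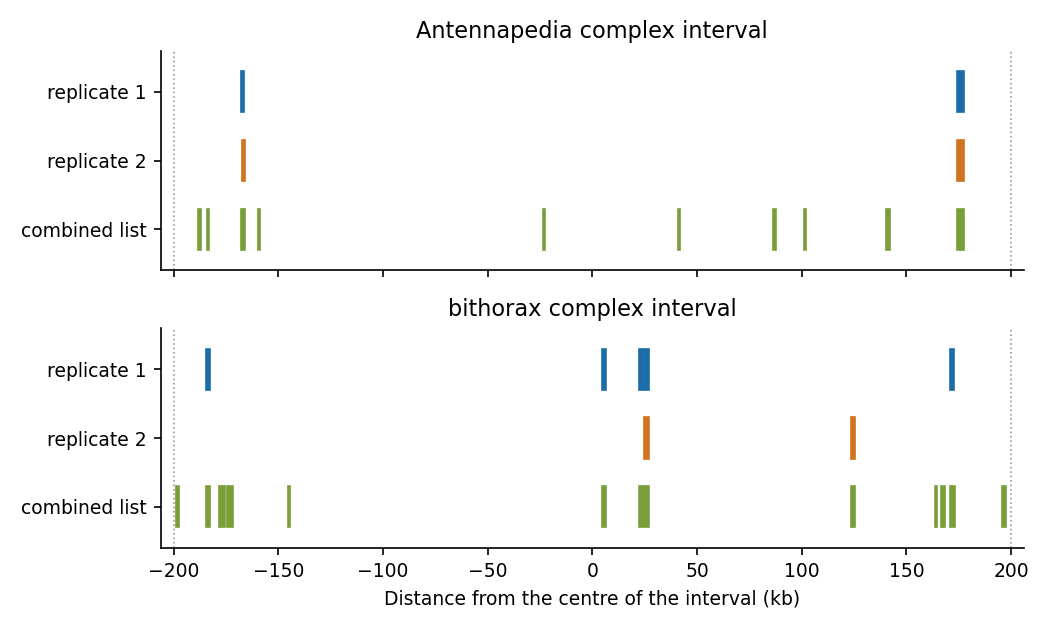
Bars show the regions of replicate 1, replicate 2 and the combined list in the 2 Hox intervals, drawn to scale by distance from the centre of each interval in kb, with dotted lines at its ends. In the Antennapedia complex interval both replicates have 2 regions, at about the same places near the ends, and in the bithorax complex interval they share 1 of the 5 and 2 regions called.

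Regions of 3R were narrow and alike in width. The median was 1859 bp in replicate 1 (quartiles 1533 and 2130) and 1751 bp in replicate 2 (1496 and 1990), and no replicate region was narrower than 1302 bp. The combined list had a median of 1655 bp and a minimum of 1001 bp. Medians over 2L, 2R and 3L together were 1878, 1693 and 1639 bp in these lists. Minima on those arms were 1301 to 1305 bp in the replicate lists and 1001 bp in the combined list. The lower bound of width was thus not particular to 3R. Regions over 3 kb numbered 33 of 581 in replicate 1 and 7 of 253 in replicate 2. The widest of replicate 1, from 1457377 to 1464344, spanned 6968 bp, and replicate 2 had 2 separate regions that overlapped it, of 2973 and 2286 bp. The widest of replicate 2, from 4475886 to 4480020, spanned 4135 bp, and its partner in replicate 1 4559 bp. Width and score went together in the replicate lists, with Spearman's rho of width and score 0.608 over 581 regions of replicate 1, 0.390 over 253 of replicate 2 and 0.101 over 1189 of the combined list. These are descriptions across regions of single lists.

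Most regions of replicate 2 were found again in replicate 1, and most of replicate 1 were not found in replicate 2. The sizes of the lists set the latter in advance, because 253 regions paired nearly 1 to 1 cannot reach most of 581. Of the 253 regions of replicate 2 on 3R, 202 overlapped replicate 1 by at least 1 base (79.8%, 95% Wilson interval 74.5 to 84.3, counting error only). On 2L, 2R and 3L together the share was 74.1%, and over all sequences, X included, 82.7%. Of the 581 regions of replicate 1, 199 overlapped replicate 2 (34.3%, 30.5 to 38.2), against 33.8% on 2L, 2R and 3L and 43.6% over all sequences. The shares of 3R were thus near those of the other autosomal arms. In bases, the Jaccard index of the replicates (shared bases over bases in either) was 0.282 on 3R and 0.261 on those arms together, with single values of 0.240 on 2L, 0.275 on 2R and 0.263 on 3L. List size limits this index too, as replicates 1 and 2 covered 1140.7 and 459.5 kb of 3R.

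Where the replicates overlapped, they mostly marked nearly the same place. Overlap itself limits how far apart the centres can lie, and the largest distance was 2413 bp. The 205 overlapping pairs had centres a median of 142 bp apart (quartiles 45.5 and 343.0), the narrower region lay wholly inside the wider in 120 pairs, and in 185 pairs (90.2%) at least 50% of both regions was shared. The replicate 1 region was the wider in 162 pairs and the replicate 2 region in 43. Regions called in a single replicate were often not close to the other list. For 382 regions of replicate 1 alone the nearest region of replicate 2 was a median of 20.7 kb away, and 22 of them lay within 1 kb of one. For 51 regions of replicate 2 alone the median distance was 6.86 kb, and 7 lay within 1 kb. Within a list the median gap between neighbours was 45.0 kb in replicate 2 and 15.9 kb in replicate 1. Whether the distances go beyond this spacing was not tested.

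Replicate 1 regions of high score were found in replicate 2 more often than those of low score. By quartiles of score in the 3R list of replicate 1, lowest first, 22.1%, 19.9%, 33.1% and 62.1% overlapped replicate 2, and 50 of the 58 regions above percentile 90 did (86.2%). In replicate 2 the quartiles stood at 84.1%, 76.6%, 79.4% and 79.4%, and 22 of the 25 regions above percentile 90 overlapped replicate 1 (88.0%). By width, 66 of 360 replicate 1 regions up to 2 kb were found in replicate 2 (18.3%), 108 of 188 between 2 and 3 kb (57.4%) and 25 of 33 over 3 kb (75.8%). Of replicate 2 regions 144 of 192 up to 2 kb were found in replicate 1 (75%), 52 of 54 between 2 and 3 kb (96.3%) and 6 of 7 over 3 kb (85.7%). The pairs' scores were loosely ranked alike, with Spearman's rho 0.337 and Pearson's r 0.629 over 205 pairs. These share the 2 libraries and lack the weak regions that were not called in both lists.

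**Figure D4:**
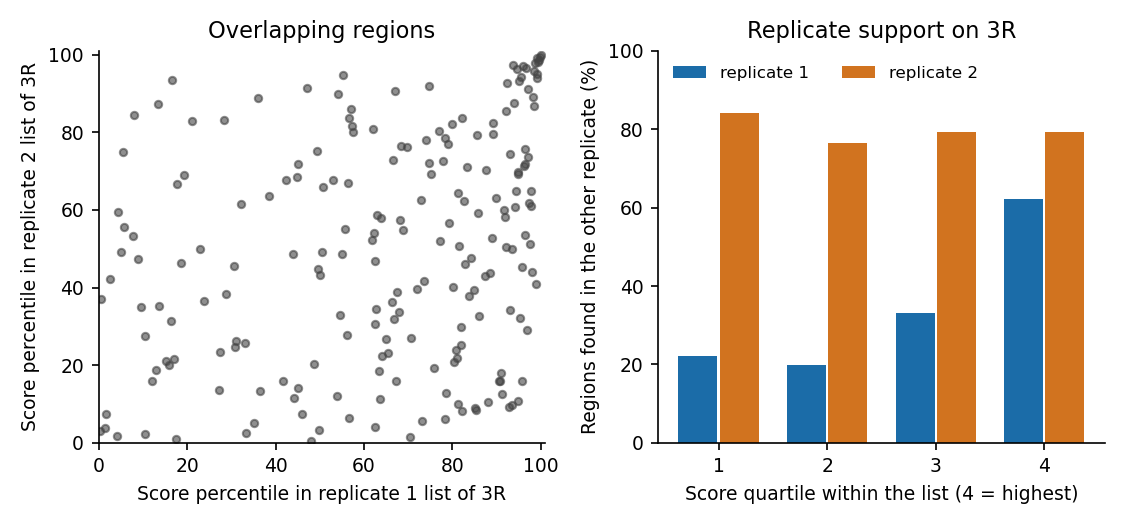
Left, each point is a pair of overlapping regions of 3R (205 pairs), placed by the percentile of its score in the replicate 1 list (horizontal) and in the replicate 2 list (vertical), with a group of pairs high in both lists at the upper right. Right, bars give the percent of regions found in the other replicate by quartile of score, which runs from 19.9% to 62.1% for replicate 1 and from 76.6% to 84.1% for replicate 2.

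The 5 regions of highest score on 3R were the same in both replicates. The region with the highest score in replicate 1, from 9842277 to 9845422 (score 1.89), overlapped the highest of replicate 2, from 9842339 to 9845385 (score 2.04), with centres 12.5 bp apart. The second highest of each list also formed a pair, from 5933116 to 5936445 with score 1.45 in replicate 1 and from 5933114 to 5936424 with score 1.52 in replicate 2. The next 3 of each list were again shared, at 1925728 to 1927957, 22083816 to 22085938 and 19170917 to 19172999 in replicate 1. All 5 lay between 2083 and 3330 bp in width in that list, and their centres differed by at most 26.0 bp from those of replicate 2. The next pairs by mean percentile of score began at 20593794, 7693985, 1461242, 4475886 and 12042602.

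The 10 widest shared stretches, chosen by width, differed in score rank, with mean percentiles over both lists from 30.2 to 99.9. The pairs above were chosen for high scores, so their likeness in score was set in advance. The pairs with the highest scores, from 9842339 and 5933116, were also among the 10 widest. The widest, from 4475886 to 4479969 with 4084 shared bases, ranked at percentile 96.6 in each list. The third, from 11171099 to 11174876 with 3778 bases, ranked at percentile 81.8 in replicate 1 and 29.8 in replicate 2, and one from 7602218 to 7605108 with 2891 bases at 23.8 and 36.6. Of the 10 widest shared stretches, 6 were over 3 kb. The median shared stretch measured 1720 bp.

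The combined list contained 96.2% of the replicate 1 bases on 3R and 95.4% of those of replicate 2, and many regions besides. Of its 1189 regions 198 overlapped both replicates, 364 replicate 1 alone, 40 replicate 2 alone and 587 neither (49.4%, 95% Wilson interval 46.5 to 52.2, counting error only). The share with no replicate region was 51.1% on 2L, 2R and 3L together and 50.5% over all sequences. Width went with support. Of 371 combined regions narrower than 1302 bp, which is narrower than any replicate region of 3R, 338 overlapped neither replicate (91.1%) and 0 overlapped both. The low support of this class was largely set in advance. A combined region that holds a whole replicate region is at least 1302 bp wide. Between that width and 2 kb 226 of 473 overlapped neither (47.8%), between 2 and 3 kb 20 of 267 (7.49%), and over 3 kb 3 of 78 (3.85%). Regions found in both replicates had a median width of 2420 bp and a median score percentile of 87.8 in the combined list, against 1213 bp and 48.2 for those in neither. The top 5 scores among combined regions of 3R nonetheless belonged to regions of 1001 to 1091 bp that overlapped neither replicate, led by the one from 15275466 to 15276466 at 2.58. The widest region in neither, from 10451310 to 10456064, measured 4755 bp and ranked at percentile 41.8.

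**Figure D5:**
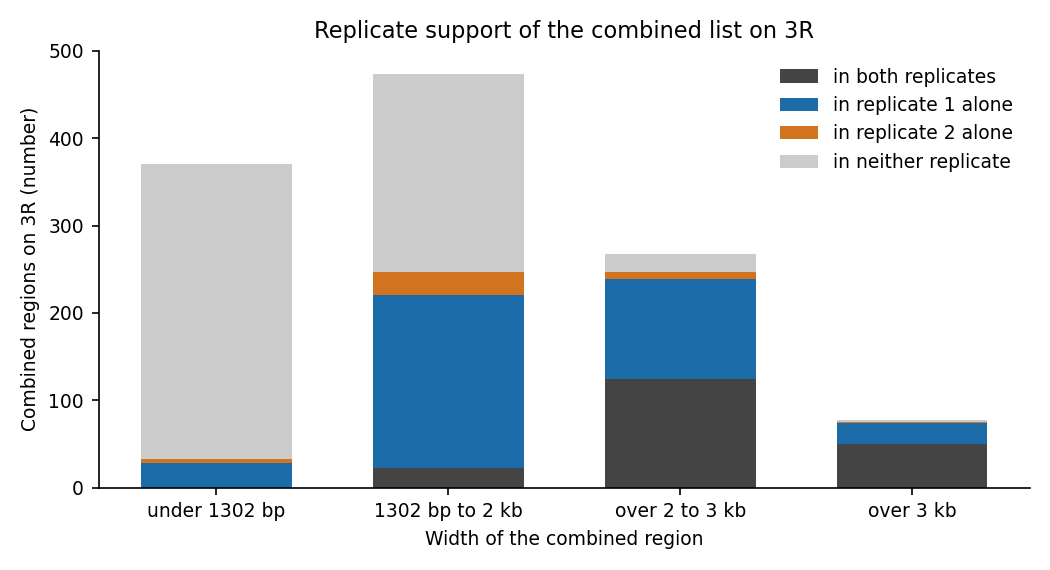
Stacked bars give the number of combined regions on 3R (vertical) in 4 classes of width (horizontal), divided into those that overlap both replicates, replicate 1 alone, replicate 2 alone or neither. In the narrowest class 338 of 371 regions overlap neither replicate, and over 3 kb 50 of 78 overlap both.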

How the data were processed

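Region lists were deposited for 2 ChIP replicates, with a combined list for the series. Per the labels, each replicate list had the input with the same number as its control. The region caller, its threshold and the origin of the combined list are not stated in the sources; the submitters' processing notes name Bowtie 0.12.7. Each region carries 1 score, deposited by the authors without a unit. Read depth is unknown, and inputs were not analysed here. Regions on 3R were kept as deposited. Bases were counted once, 1 shared base counted as overlap, and percentiles are mid-ranks within the 3R list. Python 3.11.15, numpy 2.4.6, pandas 2.3.3 and scipy 1.17.1 were used, and the interval code was tested on simulated data. The rule for named regions took the 10 widest shared stretches, the 10 pairs of highest score, 5 clusters, 5 empty stretches, 3 densest and 3 sparsest windows, all regions in the Hox intervals, and the 5 widest and 5 highest combined regions in neither replicate; those not given singly are summarised. Other regions were chosen after their values were seen. Members, intervals and rules were chosen with earlier results of these data known. Alternatives were left-out replicates, other region sets, score and width filters, overlaps, windows, gap lengths and interval bounds.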

Additional observations from a re-analysis of the deposited data

How the results depend on the processing

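Of 47 alternatives over 13 results, 22 stayed, 25 moved and 0 reversed. Staying meant lying within the replicate spread, the binomial interval or 1.5 times the reported count. For the ratio of 3R to the other autosomal arms (1.02 to 1.20, reported 1.14), it meant the same side of 1. The Jaccard index and both rho values counted as moved unless equal when rounded to 2 decimals, so small shifts in them count as moved. With a replicate left out, coverage of 3R (reported 1.26%) ranged from 1.65% to 4.09%, the median width (1720 bp) from 1751 to 1859 bp, the clusters (61) from 12 to 56, and coverage of the Antennapedia interval (1.40%) from 1.19% to 1.24% and of the bithorax interval (2.84%) from 1.01% to 2.32%. In the combined list these values were 7.63% of 3R, 150 clusters, 3.83% and 6.03%, with 54 empty stretches (90). Bases in either replicate covered 4.47% of 3R. After regions scored below the 3R median of their list were dropped, bases in both replicates covered 0.577% of 3R. That value was counted as stayed because the replicate SD was 1.73, which no fall from 1.26% could exceed. With the same regions dropped, 27.5% of replicate 1 regions (34.3%) and 64.8% of replicate 2 regions (79.8%) were found in the other list. The Jaccard index (0.282) was then 0.217. It was 0.307 with replicate 1 trimmed by score to the number of replicate 2 regions. Asking for 50% of both regions gave 73.1% for replicate 2 and a rho of scores (0.337) of 0.328. Among combined regions of at least 1302 bp, 30.4% (49.4%) overlapped neither replicate. Gaps of up to 5 kb gave 40 clusters, and a minimum of 200 kb 22 empty stretches. The rho of coverage (0.848) was 0.816 in 500-kb and 0.791 in 2-Mb windows. The Antennapedia interval was covered at 1.83% when widened by 50 kb on each side and at 0% when narrowed. The causes of these shifts were not tested, beyond larger sets covering more by construction. No paired analysis was possible because the lists analysed here hold no values for the input samples, whose numbers pair them with the ChIP samples; 3R and the other arms were compared within each replicate. Unknown depth limits all lists: a region not called is not shown to lack the mark.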

Other observations

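All 1189 starts and all 1189 ends of the combined regions on 3R were even numbers. In the replicate lists 298 of 581 starts and 121 of 253 starts were even. Of the 50 combined regions with the highest scores on 3R, 11 overlapped neither replicate, and 11 were narrower than 1302 bp. Over all 1189 combined regions, 587 overlapped neither (49.4%) and 371 were narrower than 1302 bp, so both kinds were less frequent among the 50.

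In 100-kb windows of 3R, 65 of 279 were without a region of either replicate and 129 had regions of both. A further 80 had regions of replicate 1 alone and 5 of replicate 2 alone. Of the regions called in a single replicate, 371 of 382 of replicate 1 (97.1%) and 41 of 51 of replicate 2 (80.4%) overlapped a region of the combined list. Over all regions on 3R, 570 of 581 of replicate 1 and 243 of 253 of replicate 2 did.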
